A study of Mus musculus with 4 samples.

Results

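Mature neutrophils of the bone marrow were described here as the cells whose transcripts were rich in the calcium-binding proteins S100a8 and S100a9, that carried Retnlg and Csf3r, and that were low in the granule transcripts Camp and Ngp. A cell was a member if S100a8 and S100a9 together made up at least 2% of its unique molecular identifiers (UMIs, the count of captured transcript molecules), if it had at least 1 UMI each of Retnlg and Csf3r, if Camp and Ngp together made up less than 1%, and if it had no UMI of the monocyte receptor gene Csf1r. Of 40545 cells in the files, 39167 had 200 to 10000 detected genes and at most 10% mitochondrial UMIs, and 1399 of these were members. The study profiled marrow of TLR9-/- mice, in which the gene of the endosomal DNA receptor Toll-like receptor 9 is disrupted, and of wild type (WT) mice, all labelled C57BL/6 and given as C57BL6/J in the methods. The lines were bred in separate cages on normal chow, and no treatment is named for them. The mononuclear cells of femur and tibia were collected from the interface of a Ficoll-paque density gradient and profiled by 5′ single-cell RNA sequencing. The labels name no culture before the gradient. For osteoclast assays the methods place an overnight culture with M-CSF ahead of it, and whether the sequenced cells went through that step is not given in the sources used here. Each genotype had 2 mice, 1 in each of 2 experiments, and each mouse gave 1 library. The libraries are called TLR9-/- 1, TLR9-/- 2, WT 1 and WT 2 after their labels, and whether a number marks a shared experiment is not given in the labels. The age and sex of the mice used for sequencing are not given in the sources used here.

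Neutrophils arise in the marrow from myeloid progenitors that synthesise their granule proteins in waves, with primary granule proteases and myeloperoxidase made in promyelocytes, lactoferrin, cathelicidin and lipocalin made in myelocytes and metamyelocytes, and gelatinase made last. Once granule synthesis has stopped, the cells acquire chemokine and cytokine receptors, become small and low in RNA, and are held in the marrow by CXCR4 signalling until CXCR2 ligands draw them into the blood. Mature neutrophils are dense and sink through Ficoll, so that those found at the interface are a selected part of the marrow pool.

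Members numbered 528 of 10781 cells in TLR9-/- 1, 368 of 8918 in TLR9-/- 2, 77 of 10573 in WT 1 and 426 of 8895 in WT 2. WT 1 thus held far fewer members than the other libraries. The share of all cells was 4.90% in TLR9-/- 1 (95% exact interval 4.50 to 5.32), 4.13% in TLR9-/- 2 (3.72 to 4.56), 0.728% in WT 1 (0.575 to 0.909) and 4.79% in WT 2 (4.35 to 5.25). The intervals are Clopper-Pearson intervals and cover counting error only. WT 2 lay between the TLR9-/- libraries, and the groups overlapped. The mean share was 4.51% ± 0.545 in TLR9-/- and 2.76% ± 2.87 in WT (SD, n = 2 libraries per genotype), a difference of 1.75 percentage points that was smaller than the spread between the WT libraries (two-sided exact permutation test, p = 0.67, where 2 against 2 libraries cannot go below 0.33). Without WT 1 the difference was −0.277 percentage points, and without WT 2 it was 3.78.

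The shortfall in WT 1 was also seen among the granulocytes. Cells with at least 2% S100a8 and S100a9 UMIs and no Csf1r UMI, 6876 in all, made up 17.1%, 23.8%, 10.3% and 20.5% of the cells of TLR9-/- 1, TLR9-/- 2, WT 1 and WT 2. Of these cells, members made up 28.6%, 17.3%, 7.08% and 23.4%. The means were 23.0% ± 8.0 in TLR9-/- and 15.2% ± 11.5 in WT, with overlapping groups (difference 7.76 percentage points, exact permutation test, p = 0.67). Without WT 1 the difference was −0.389 percentage points. The remaining S100a8/S100a9-high cells were 2689 intermediate neutrophils, which had at least 1% Camp and Ngp and also Retnlg, 1952 immature neutrophils, which had the granule transcripts without Retnlg, and 836 cells low in Camp and Ngp that lacked Retnlg (281) or had Retnlg but no Csf3r (555).

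Members held little RNA. The median number of UMIs per member was 857.5 in TLR9-/- 1, 1576 in TLR9-/- 2, 785 in WT 1 and 1083 in WT 2, against 3302.5, 3700, 2178 and 3671.5 in intermediate and 5025.5, 5641, 3378 and 6201 in immature neutrophils. Members were thus the lowest of the 3 stages in every library. The smallest number of UMIs of any cell in the files that passed the limits was 500, and 13.4%, 1.63%, 22.1% and 5.87% of the members of TLR9-/- 1, TLR9-/- 2, WT 1 and WT 2 had fewer than 600 UMIs. The members' distribution therefore ran up to the lower edge of the called cells, most of all in WT 1, and its part in the share of members was not tested. When every cell with at least 1000 UMIs was thinned to 1000 before the rule was applied, members numbered 148, 235, 18 and 197, or 1.67%, 2.78%, 0.229% and 2.55% of those cells and 10.4%, 11.1%, 2.04% and 12.3% of the S100a8/S100a9-high cells among them. By their unthinned counts 189, 310, 30 and 248 of the same cells were members. TLR9-/- 1, the highest library over all cells, thus lay below TLR9-/- 2 and WT 2 among these deeper cells both with and without thinning. The difference between the genotypes was 0.836 percentage points of the cells, against 1.75 before, and 3.58 of the S100a8/S100a9-high cells, against 7.76. The members' UMIs summed to 736339, 959208, 142147 and 696808, so that WT 1 gave the least precise expression values.

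**Figure D1:**
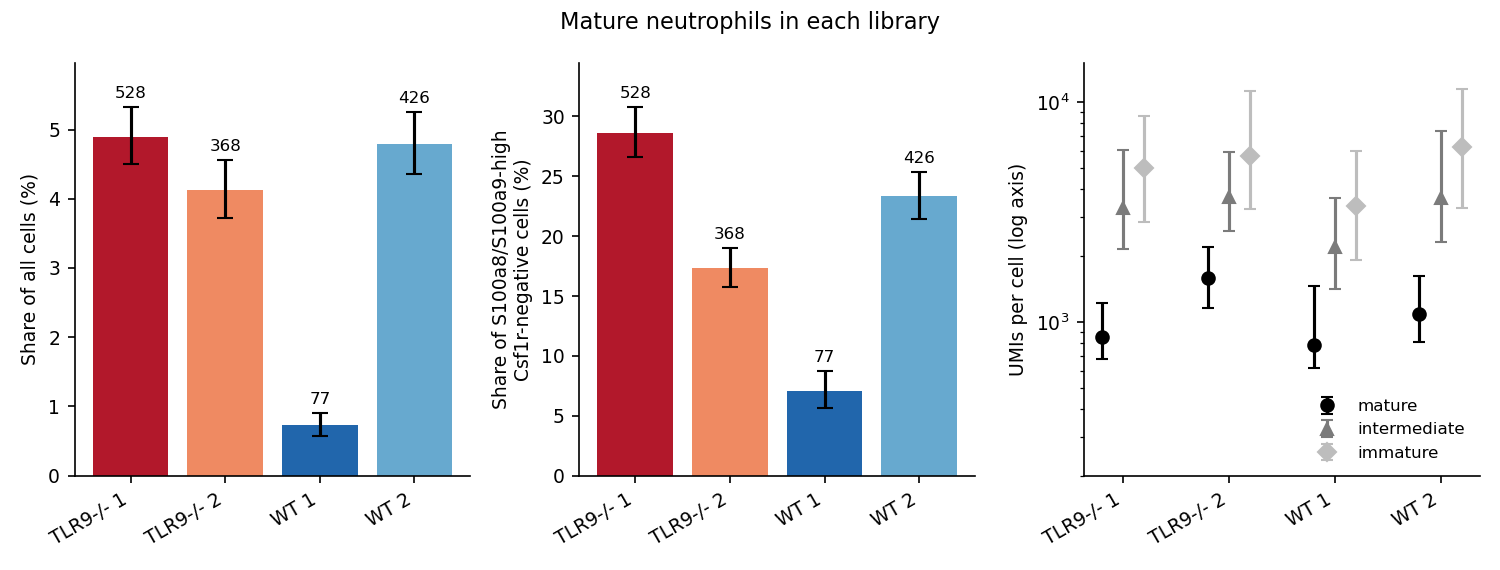
The share of mature neutrophils among all cells and among S100a8/S100a9-high, Csf1r-negative cells per library, with 95% exact intervals and the number of members above each bar, and the median UMIs per cell (log axis, bars from the lower to the upper quartile) in the 3 neutrophil stages. WT 1 is lowest in both shares, at 0.728% and 7.08%, and mature neutrophils have the fewest UMIs in every library.

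The rule chose members by the levels of 7 genes, and the values of these genes are given only as a description. The median share of S100a8 and S100a9 was 25.5%, 31.3%, 22.7% and 24.8% in TLR9-/- 1, TLR9-/- 2, WT 1 and WT 2, and the median member had 37 UMIs of Retnlg and 2 of Csf3r. No UMI of Camp or Ngp was found in 795 of 1399 members (56.8%). At the edges of the rule, 83 members had 0.5% to 1% Camp and Ngp and 57 cells just outside had 1% to 1.5%. Another 27 members had 2% to 3% S100a8 and S100a9, and 29 cells just outside had 1% to 2%. Exactly 1 UMI of Retnlg was found in 37 members and exactly 1 of Csf3r in 505. Csf3r, the receptor for granulocyte colony-stimulating factor, was thus at its limit in more members than Retnlg. Cell barcodes shared between the members of any pair of libraries numbered 0.

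The label was checked against markers that the rule did not use. Il1b, Slpi and Ifitm1, named as markers beside Retnlg and Csf3r, were higher in members than in intermediate neutrophils in every library. For this description the UMIs of each stage were summed per library and scaled together over the 12 sums to CPM, the unit of edgeR's cpm function with TMM factors, and a ratio is the log2 ratio of CPM + 2. Because the stages were defined by genes measured in the same cells, no test was made between them. Il1b, the gene of the cytokine interleukin-1β, had 895, 183, 120 and 489 CPM in members of TLR9-/- 1, TLR9-/- 2, WT 1 and WT 2, and 15.1, 3.35, 2.11 and 6.51 CPM in intermediate neutrophils. Slpi, an inhibitor of neutrophil serine proteases, had 3051, 2406, 1557 and 2711 CPM against 614, 934, 674 and 627 CPM. Ifitm1, an interferon-induced transmembrane protein, had 1560, 822, 509 and 1305 CPM against 57.3, 48.9, 24.0 and 27.6 CPM. The 4 sums of members lay above the 4 intermediate sums for each of the 3 genes.

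Of 2158 genes with a mean of at least 50 CPM in either stage, 94 (4.36%) were more than 2-fold higher in members than in intermediate neutrophils in every library and 96 (4.45%) were more than 2-fold lower. These counts depended on 58 members with more than 5000 UMIs, and without them, with the earlier stages unchanged, 242 (10.5%) of 2312 genes were higher and 265 (11.5%) lower, which included the 94 and 65 of the 96. The 10 highest, ordered by the library with the smallest ratio, were Il1b, Ccl6, Gm5483, Ifitm1, Cxcl2, Wfdc17, Sirpb1b, Pla2g7, H2-Q10 and Gm5150. Ccl6, a CC chemokine of myeloid cells, had 2490, 1762, 1652 and 2604 CPM in members of TLR9-/- 1, TLR9-/- 2, WT 1 and WT 2 and a mean of 74.6 CPM in intermediate and 23.3 CPM in immature neutrophils. Cxcl2, a chemokine that attracts neutrophils through CXCR2, had 247, 60.2, 44.9 and 137 CPM in members and means of 2.43 and 0.23 CPM in the earlier stages. Wfdc17, a small protein with a whey acidic protein domain, had 3987, 1093, 409 and 1527 CPM in members and means of 37.2 and 16.1 CPM before. Pla2g7, the plasma enzyme that inactivates platelet-activating factor, had means of 1.60 CPM in immature, 5.67 CPM in intermediate and 149 CPM in mature neutrophils. Among the members, TLR9-/- 1 was the highest library and WT 1 the lowest for Il1b, Cxcl2 and Wfdc17.

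The 10 lowest genes were Ltf, Orm1, Chil3, Olfml2b, Cybb, Cebpe, AA467197, 4930438A08Rik, Ly75 and Itgb2l. Ltf, the gene of lactoferrin, had 48.7, 55.6, 99.8 and 49.1 CPM in members and 5150, 7108, 4929 and 4869 CPM in intermediate neutrophils, a mean log2 ratio of −6.45. Chil3, a chitinase-like secretory protein, had 157, 132, 230 and 65.9 CPM against a mean of 4905 CPM. Cebpe, the transcription factor that drives secondary granule genes, had 32.5, 66.7, 19.96 and 51.7 CPM against a mean of 424 CPM, and Cybb, the catalytic subunit of the NADPH oxidase, had 95.2, 155, 115 and 93.1 CPM against a mean of 1099 CPM. These genes were at like levels in intermediate and immature neutrophils, with immature means of 3898 CPM for Ltf, 5403 CPM for Chil3, 456 CPM for Cebpe and 905 CPM for Cybb. The difference was therefore between the intermediate and the mature stage, which is where the rule set its limit on Camp and Ngp.

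**Figure D2:**
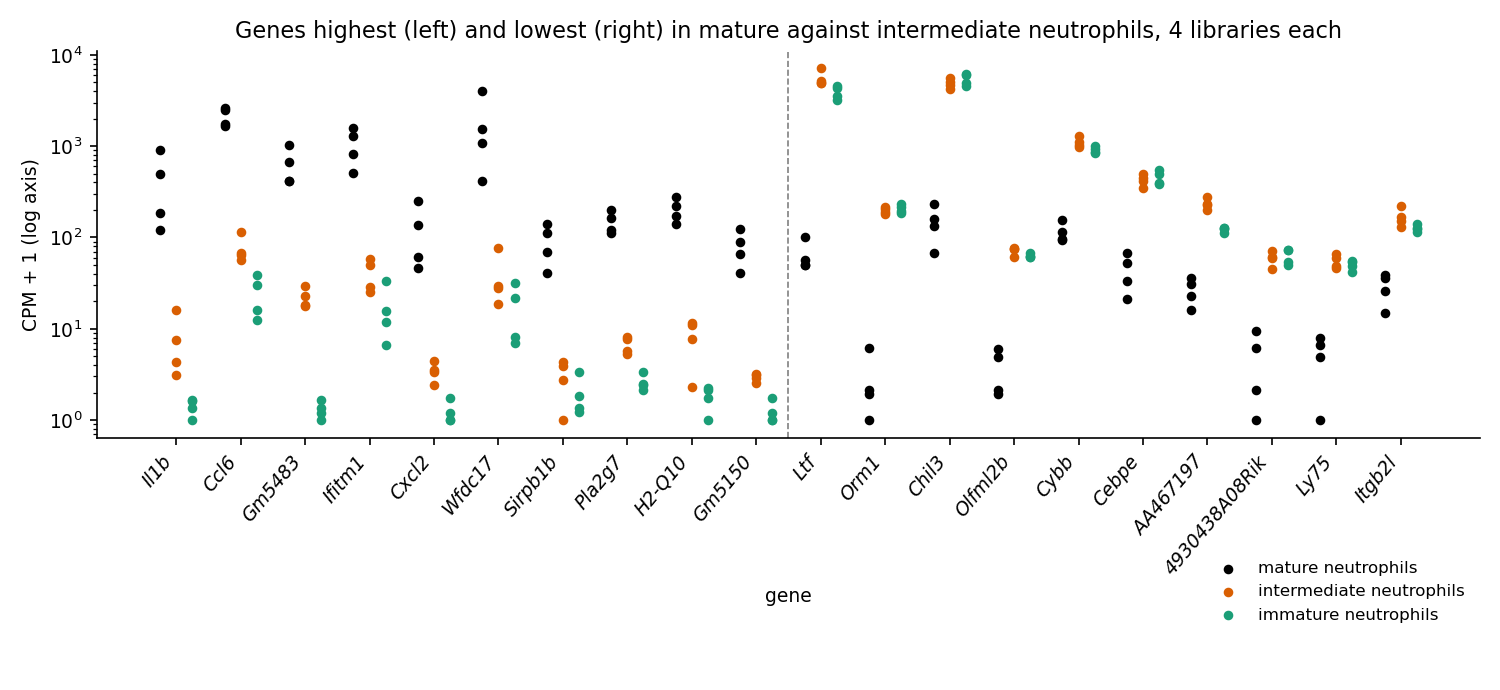
CPM + 1 (log axis) of the 10 highest and 10 lowest genes of mature against intermediate neutrophils, with 1 point per library in the mature, intermediate and immature stage. Il1b is at 2.11 to 15.1 CPM in intermediate and at 120 to 895 CPM in mature neutrophils, whereas Ltf is at 4869 to 7108 CPM in intermediate and at 48.7 to 99.8 CPM in mature neutrophils.

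The upstream sequences of 4 of these genes are shown to set a pair that was high in members, Il1b and Wfdc17, beside a pair that was low, Ltf and Chil3. Each is the 250 bases before the annotated start, from RefSeq on GRCm38.p6, written 5′ to 3′ on the strand of the gene. Capitals mark matches to TTNNGNAA on either strand, read as TTNCNNAA on the other, a loose form of the motif bound by CCAAT/enhancer binding proteins, which include Cebpe and Cebpb.
Il1b, chr2:129371140-129371389, minus strand: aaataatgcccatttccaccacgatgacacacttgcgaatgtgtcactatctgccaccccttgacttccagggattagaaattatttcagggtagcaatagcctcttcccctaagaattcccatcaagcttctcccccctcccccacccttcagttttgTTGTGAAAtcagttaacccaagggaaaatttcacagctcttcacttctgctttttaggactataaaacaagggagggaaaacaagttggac
Wfdc17, chr11:83703806-83704055, plus strand: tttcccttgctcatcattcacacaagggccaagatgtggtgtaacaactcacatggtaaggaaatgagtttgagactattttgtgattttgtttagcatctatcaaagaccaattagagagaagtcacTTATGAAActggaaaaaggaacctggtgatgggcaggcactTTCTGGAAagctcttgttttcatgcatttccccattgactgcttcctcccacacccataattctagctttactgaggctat
Ltf, chr9:111019042-111019291, plus strand: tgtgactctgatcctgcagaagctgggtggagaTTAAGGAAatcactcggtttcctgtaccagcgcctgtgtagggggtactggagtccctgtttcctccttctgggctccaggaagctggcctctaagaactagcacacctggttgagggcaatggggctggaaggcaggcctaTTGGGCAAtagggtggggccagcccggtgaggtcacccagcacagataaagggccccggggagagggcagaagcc
Chil3, chr3:106167565-106167814, minus strand: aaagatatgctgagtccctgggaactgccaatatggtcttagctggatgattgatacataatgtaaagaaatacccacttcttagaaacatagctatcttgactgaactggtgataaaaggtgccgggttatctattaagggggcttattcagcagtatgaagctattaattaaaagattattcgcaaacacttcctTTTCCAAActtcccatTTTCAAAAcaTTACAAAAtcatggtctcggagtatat
Il1b had 1 match, starting 91 bases before the start, Wfdc17 had 2, at 122 and 81 bases, Ltf had 2, at 217 and 75 bases, and Chil3 had 3, at 53, 37 and 27 bases. Among the others, Ngp and Sirpb1b had 3 matches each and Ly75 had 2. Cxcl2, Gm5150, H2-Q10, Itgb2l, 4930438A08Rik and Retnlg had 1 each. Camp, Ccl6, Ifitm1, Csf3r, Pla2g7, Cybb, AA467197 and Olfml2b had 0 in this window. A match was present in 36.8% of all 32851 promoters, and it was found in genes of both directions. GAGGAAG, or CTTCCTC on the other strand, is bound by the myeloid factor PU.1. It was found once in the Wfdc17 window, once in that of Csf3r and at 2 places in that of Itgb2l, a gene low in members. It was present in 10.6% of all promoters. A match is a run of letters and not a measured binding site.

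The gene lists of neutrophil function differed in how they stood between the stages. Each list count with all members summed stands beside 4.36% higher and 4.45% lower over all 2158 genes considered. Of 16 mature neutrophil genes that reached 50 CPM, 10 were more than 2-fold higher in members in every library and 0 were lower. They included Asprv1, Ccl6, Clec4d, Cxcr2, Fgl2, Ifitm1, Il1b, Slpi and Stfa2l1, and the list was assembled from genes known to mark this stage. Its median log2 ratio, over the libraries, was 1.91, beside −0.11 over the 2158 genes. Of 14 secondary and tertiary granule genes, 0 were higher and 8 were lower (median −1.78), among them Ltf, Chil3, Lcn2, Cd177, Olfm4 and Lyz2. Lcn2, the siderophore-binding lipocalin, had 1901, 3652, 1287 and 3513 CPM in members and a mean of 16282 CPM in intermediate neutrophils. The gelatinase gene Mmp9, of the granules made last, and the collagenase gene Mmp8 differed from the rest of that list, with means of 1050 and 1060 CPM in members against 832 and 739 CPM in intermediate and 143 and 59.2 CPM in immature neutrophils. Their ratios of mature to intermediate neutrophils had no common direction in the libraries, from −0.33 to 0.87 and from −0.09 to 1.13 on the log2 scale. Without the 58 members above 5000 UMIs the ratios were 0.19 to 1.51 and 0.43 to 1.72, higher in members of every library.

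Receptors for migration were mixed. Of 13 considered, 4 were more than 2-fold higher in members of every library and 1 was lower. Cxcr2, the receptor for CXC chemokines, had 435, 387, 120 and 486 CPM in members and a mean of 77.6 CPM in intermediate neutrophils. Ccr1, a receptor for CC chemokines, had 220, 152, 89.8 and 178 CPM against 35.5 CPM, and Selplg, the ligand of P-selectin, had 571, 456, 279 and 614 CPM against 113 CPM. The lower gene was Ltb4r1, a receptor for leukotriene B4, with a mean of 68.6 CPM against 315 CPM. Cxcr4, the retention receptor, had 197, 162, 200 and 220 CPM in members and means of 153 CPM in intermediate and 134 CPM in immature neutrophils. The formyl peptide receptor gene Fpr1 had a mean of 147 CPM in members and 49.5 CPM in intermediate neutrophils, with ratios from 0.93 to 2.19 on the log2 scale.

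Some genes of the early response and of inflammation were higher in members. Of 11 early response genes considered, Btg2, Dusp1, Egr1, Fos and Junb were more than 2-fold higher in every library and 0 were lower. Over all 2158 genes, 4.36% were higher and 4.45% lower by this limit. Junb, a subunit of the AP-1 transcription factor, had 1849, 385, 404 and 791 CPM in members of TLR9-/- 1, TLR9-/- 2, WT 1 and WT 2 and a mean of 56.7 CPM in intermediate neutrophils. Fos had 1227, 195, 314 and 376 CPM against 70.3 CPM. TLR9-/- 1 was the highest library for both genes, in members and in intermediate neutrophils alike, where its Fos level was 150 CPM against 21.7, 74.7 and 34.7 CPM in the others. Of 10 NF-kB targets and inflammatory mediators, Ccl6, Cxcl2 and Il1b were higher and 0 were lower. Tnf, encoding tumour necrosis factor, had a mean of only 14.97 CPM in members and 23.4 CPM in intermediate neutrophils.

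Of 14 interferon-stimulated genes considered, Ifitm1, Isg15, Rsad2 and Rtp4 were more than 2-fold higher in members of every library, and Ifitm6 was lower, with a mean of 605 against 2239 CPM. Rtp4, a transmembrane chaperone, had 205, 141, 145 and 123 CPM against a mean of 19.2 CPM. Of 7 pattern recognition genes, the C-type lectin gene Clec4d, at a mean of 244 against 13.9 CPM, and Tlr13, a receptor for bacterial ribosomal RNA, at 54.8 against 11.7 CPM, were higher. Tlr2 had a mean of 46.4 CPM and Tlr4 of 13.9 CPM in members. Of 11 Fc and paired inhibitory receptors, Cd300ld, Lilr4b and Lilrb4a were higher. Of 7 NADPH oxidase subunits, Cybb was lower and 0 were higher, and Cyba and Ncf1 had means of 1335 and 298 CPM in members. Of 10 transcription factors of granulocytes, Junb was higher and Cebpe lower, and Cebpb had a mean of 469 against 149 CPM. Of 17 cell cycle genes, Birc5, Ccna2, Ccnb2, Cdc20 and Hmgb2 were lower. Among the 5 survival, 7 heat shock and 7 primary granule genes considered, 0 passed the 2-fold limit in every library in either direction when all members were summed, which changed for each of these lists without the 58 members above 5000 UMIs.

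The primary granule genes went against the label in a small part of the members. There were 58 members with more than 5000 UMIs, 19 in TLR9-/- 1, 19 in TLR9-/- 2, 6 in WT 1 and 14 in WT 2, and they held 26.9%, 37.7%, 44.5% and 24.97% of the members' UMIs. In these 58 cells the 8 primary granule genes, among them Elane, Prtn3, Mpo and Ctsg, summed to 23679, 44964, 31486 and 30673 CPM of their own UMIs without TMM factors (unscaled CPM), against 301, 207, 254 and 446 unscaled CPM in the members with at most 5000 UMIs and 4598, 5904, 3528 and 5348 unscaled CPM in intermediate neutrophils. The 18 genes of the mature neutrophil list that the rule did not use summed to 5527, 3714, 4013 and 3937 unscaled CPM in the 58 cells and to 32121, 29390, 24275 and 28844 unscaled CPM in the other members. Elane, encoding neutrophil elastase, had a mean of 13460 unscaled CPM in the 58 cells and 124 unscaled CPM in the others. By the neutrophil genes outside the rule, the members with at most 5000 UMIs fitted the label. They also carried RNA of other cells, with the 8 erythroid genes at 11120, 3105, 41827 and 6980 unscaled CPM in TLR9-/- 1, TLR9-/- 2, WT 1 and WT 2. In WT 1 this exceeded the 24275 unscaled CPM of the mature neutrophil list. In the 58 cells the erythroid genes had 656, 440, 79.0 and 3920 unscaled CPM. The 58 cells met the rule while carrying primary granule genes. No doublet caller was run, and whether these cells are doublets was not tested. In the members with at most 5000 UMIs, the secondary and tertiary granule genes other than Camp and Ngp summed to 18259, 27689, 15574 and 23154 unscaled CPM and the early response genes to 11998, 4115, 5644 and 6276 unscaled CPM.

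The stages were therefore also compared with only the members of at most 5000 UMIs in the mature sums, an alternative chosen after seeing the data. The depth of cells was limited in the mature stage alone. Over all 2312 genes considered, 10.5% were more than 2-fold higher and 11.5% lower in every library. Of 6 primary granule genes that reached 50 CPM, 6 were then more than 2-fold lower in members of every library (Ctsg, Elane, Mpo, Ms4a3, Prss57 and Prtn3, median log2 ratio −4.12). Elane had 136, 85.0, 79.3 and 148 CPM in these members and 2186, 2889, 1948 and 2721 CPM in intermediate neutrophils. Of 17 cell cycle genes 14 were lower (median −2.25), among them Mki67, Top2a and Pcna, and of 7 heat shock genes the chaperone gene Hsp90aa1 was lower and 0 were higher. Of 6 survival genes Bid and Txnip were higher.

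Lists with genes higher in all members had more of them among the members of at most 5000 UMIs. The share over all genes rose as well, from 4.36% of 2158 to 10.5% of 2312 genes. A larger count in a list is therefore not particular to that list. Of 14 NF-kB targets and inflammatory mediators 10 were higher, among them Il1rn, the interleukin-1 receptor antagonist, and Nlrp3, an inflammasome sensor. Higher genes numbered 13 of 16 mature neutrophil genes, 8 of 16 interferon-stimulated genes, 7 of 12 early response genes, 6 of 8 pattern recognition genes, with Tlr2 among them, 5 of 12 Fc and paired inhibitory receptors and 5 of 13 migration receptors, with Fpr1 among them. Of 14 secondary and tertiary granule genes 5 were lower, Anxa1, Cd177, Chil3, Lcn2 and Ltf. Olfm4, Lyz2, Ifitm6 and Hmgb2, which were lower in all members, no longer passed the limit in every library, with smallest differences of −0.98, −0.85, −0.62 and −0.87 on the log2 scale. The 10 highest and 10 lowest genes named above stayed beyond the limit.

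**Figure D3:**
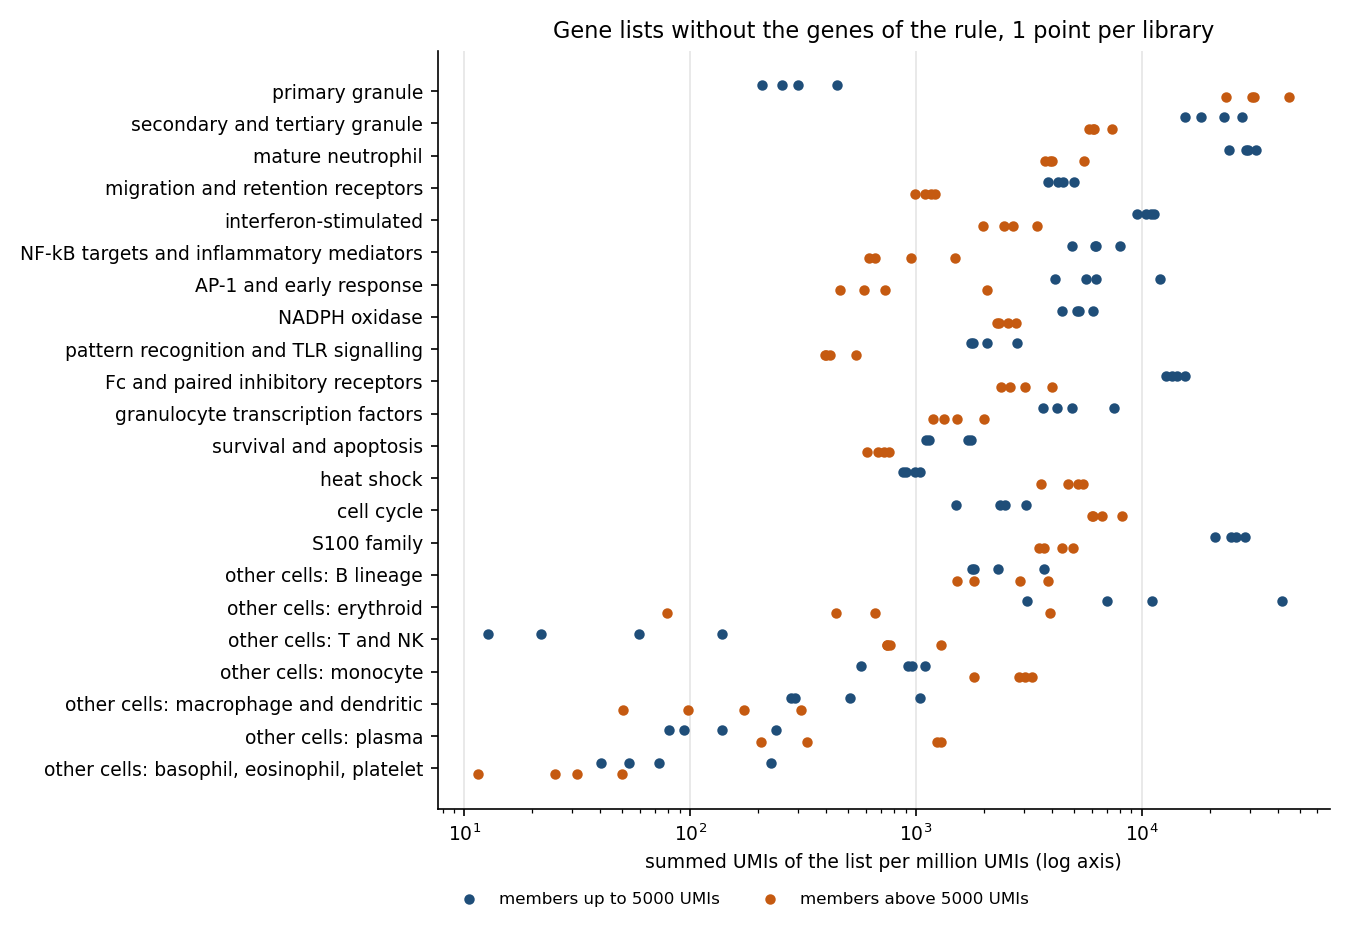
Summed unscaled CPM (log axis) of each gene list in members with at most 5000 UMIs and in the members with more, with 1 point per library. The primary granule list is at 207 to 446 unscaled CPM in the former and at 23679 to 44964 unscaled CPM in the latter, and the mature neutrophil list, with the genes of the rule left out as in every list, is at 24275 to 32121 against 3714 to 5527 unscaled CPM.

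The members with at most 5000 UMIs differed among themselves in Il1b. At least 1 Il1b UMI was found in 286, 88, 14 and 169 such members of TLR9-/- 1, TLR9-/- 2, WT 1 and WT 2, and none in 223, 261, 57 and 243. The cells with Il1b were no deeper than those without, with median UMIs of 820, 1166, 740 and 973 against 870, 1692, 769 and 1167. Levels of the cells with and without Il1b were compared as log2 ratios of unscaled CPM + 20. Fgl2, a fibrinogen-like protein, was higher beside Il1b by 1.11, 2.42, 1.17 and 1.37 in TLR9-/- 1, TLR9-/- 2, WT 1 and WT 2, Egr1 by 1.21, 1.85, 1.27 and 1.53, and Wfdc17 by 0.67, 2.13, 1.46 and 0.96. Cd177, a surface glycoprotein of neutrophils, was lower, with ratios of −0.62, −2.40, −3.75 and −1.86, as were Ifitm6 (−1.34, −1.31, −2.05 and −1.34) and Ltf (−0.28, −2.14, −2.11 and −1.28). The direction was the same in the 4 libraries for each of these genes, though for Ltf it rested on few UMIs. The cells with Il1b had no Cd177 UMI in WT 1 and no Ltf UMI in TLR9-/- 2 and WT 1. These ratios were therefore set by the 20 CPM added. In TLR9-/- 1 Ltf had 3.34 against 8.39 unscaled CPM.

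A like division was seen by the residue of granule transcripts. Members with at most 5000 UMIs that still had a Camp or Ngp UMI numbered 98, 196, 24 and 245 in TLR9-/- 1, TLR9-/- 2, WT 1 and WT 2, and those with none 411, 153, 47 and 167. The former had more UMIs, with medians of 970.5, 1880.5, 1151.5 and 1182 against 822, 1189, 683 and 937, so that depth moved with this division and its part was not tested. Beside Camp or Ngp, Cd177 was higher by 1.09, 1.74, 1.25 and 1.33 and Ltf by 0.75, 2.02, 2.78 and 1.23 on the log2 scale. Il1b had ratios of −0.73, −2.04, −2.64 and −0.76 and Fgl2 of −1.26, −1.71, −4.06 and −0.80. Ifitm1 had −0.88, −0.69, −1.78 and −0.60. In WT 1 the cells with Camp or Ngp had no Fgl2 UMI, and those without had no Ltf UMI. The WT 1 ratios of Fgl2 and Ltf were therefore set by the 20 CPM added. The cells compared are parts of the same libraries, and genes of these 2 divisions were named for their ratios, which are given without a test.

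RNA of other cell types was present in the members' sums. The 8 erythroid genes summed to 8302, 2101, 23236 and 6215 unscaled CPM in members of TLR9-/- 1, TLR9-/- 2, WT 1 and WT 2, with the globin gene Hbb-bs as the most abundant at 4482, 911, 2419 and 1746 UMIs. WT 1 was the highest library. The 8 B lineage genes summed to 1695, 2575, 2856 and 2454 unscaled CPM, the 8 monocyte genes to 1442, 1828, 1991 and 880 unscaled CPM, with Ly6c2 the most abundant and Csf1r at 0 by the rule. The 7 T and NK genes summed to 301, 501, 338 and 235 unscaled CPM, mostly from Nkg7, with the T cell gene Cd3e at 0 in WT 1 and the NK gene Ncr1 at 0 in TLR9-/- 2, WT 1 and WT 2. The 4 plasma cell genes summed to 447, 526, 225 and 142 unscaled CPM, the 8 macrophage and dendritic genes to 219, 435, 654 and 243 unscaled CPM, and the 8 genes of basophils, eosinophils and platelets to 59.8, 43.8, 141 and 43.1 unscaled CPM, with the eosinophil peroxidase gene Epx at 0 in every library. UMIs of other lineages were counted per member over the erythroid, B lineage, T and NK and plasma cell genes, with C1qa, C1qb, C1qc and Pf4. At least 2 such UMIs were found in 32.4%, 19.6%, 48.1% and 33.3% of members. The monocyte genes and the rest of the macrophage, dendritic, basophil, eosinophil and platelet genes were not part of this count. The median mitochondrial share was 0.318% and 0.264% in TLR9-/- and 0.544% and 0.464% in WT members, without overlap (means 0.291% ± 0.0382 and 0.504% ± 0.0567, SD, n = 2, exact permutation test, p = 0.33, the smallest possible). Without the cells holding at least 2 UMIs of other lineages, the genotype test called 2 higher and 4 lower of 2576 genes, with Oasl2 at −4.97, Cd300ld at −3.55 and Gm34084, Gm35082 and BC018473 also called (edgeR adjusted p from 1.8e-07 to 0.037). With mitochondrial UMIs at most 5% it called 7 and 8.

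To compare the fraction of members with a given transcript at equal depth, members with at least 1000 UMIs were thinned to 1000, which left 189, 310, 30 and 248 cells and omitted 622. Il1b was detected in 42.3%, 16.5%, 10.0% and 27.0% of members of TLR9-/- 1, TLR9-/- 2, WT 1 and WT 2, against 0.276%, 0.045%, 0.033% and 0.112% of B lineage cells, in which the gene is not expected. Members therefore exceeded the background of free RNA in every library, while the genotypes overlapped (exact permutation test, n = 2, p = 0.67). Without thinning, 56.1%, 24.2%, 19.5% and 40.6% of all members had an Il1b UMI. Ifitm1 was detected in 48.7%, 35.5%, 23.3% and 49.2% of thinned members and in 1.18% to 2.49% of B lineage cells, Slpi in 83.6%, 82.6%, 56.7% and 82.7% against 2.77% to 3.87%, and Cxcr2 in 38.1%, 42.9%, 16.7% and 45.2% against 0.0899% to 0.196%. WT 1 was the lowest library for each of the 4 genes, and WT 2 lay within or close to the range of the TLR9-/- libraries. Unthinned, Ifitm1 was found in 60.6%, 48.6%, 35.1% and 53.8%, Slpi in 89.4%, 92.7%, 77.9% and 91.3%, and Cxcr2 in 48.3%, 63.6%, 27.3% and 55.6% of all members.

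Fos was detected in 64.6%, 22.3%, 23.3% and 36.3% of thinned members of TLR9-/- 1, TLR9-/- 2, WT 1 and WT 2 (74.6%, 36.7%, 44.2% and 42.0% unthinned), and TLR9-/- 1 was also the highest library among B lineage cells, with 9.30% against 2.11%, 6.14% and 2.88%. Isg15 was detected in 16.4%, 11.9% and 9.27% of thinned members of TLR9-/- 1, TLR9-/- 2 and WT 2 and in 9 of 30 of WT 1 (15.9%, 18.2%, 12.9% and 27.3% unthinned), and WT 1 was likewise the highest library among B lineage cells, with 7.52% against 2.26%, 2.97% and 2.52%. The genotypes overlapped for both genes. Cxcr4 was detected in 19.0%, 19.0%, 33.3% and 21.4% of thinned members, without overlap (exact permutation test, n = 2, p = 0.33). Of all members unthinned, 23.1%, 30.4%, 37.7% and 27.5% had a Cxcr4 UMI. Thinned B lineage cells had 15.6%, 12.0%, 19.6% and 22.7%, so that in WT 2 the thinned value was below that of B lineage cells, which also express this receptor. With members thinned to 500 UMIs the genotypes overlapped for Cxcr4.

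**Figure D4:**
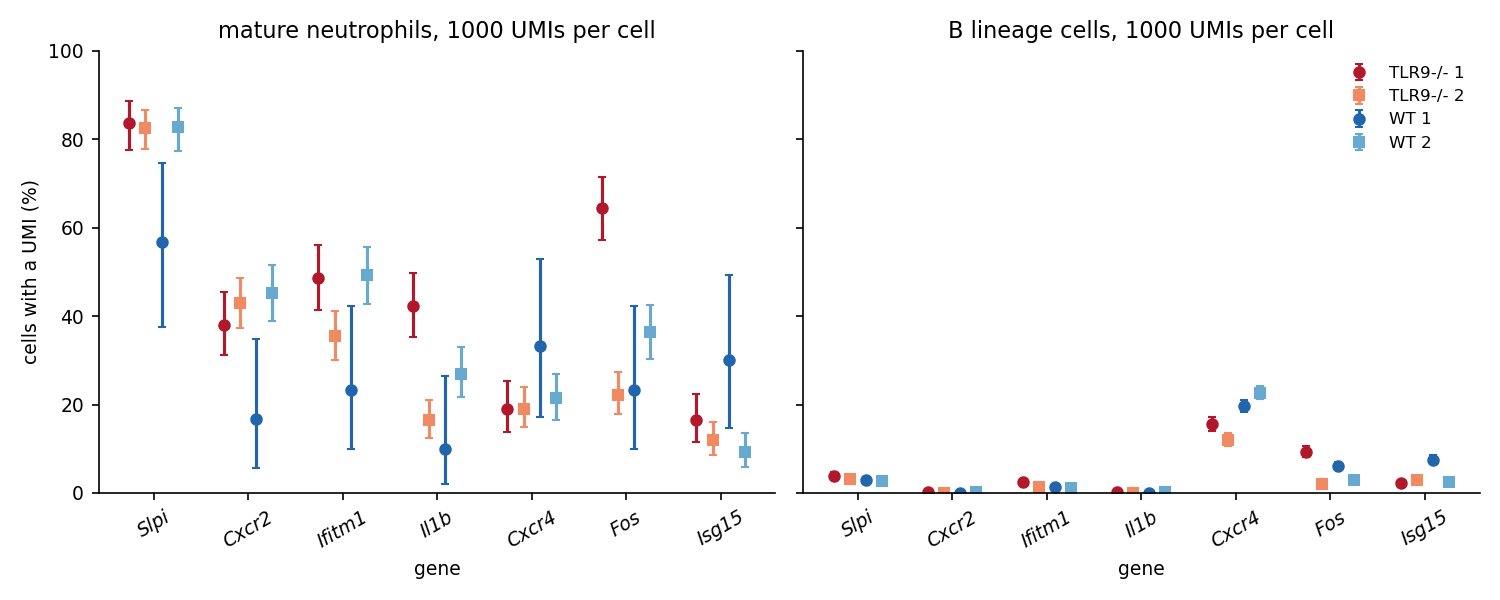
The share of cells with at least 1 UMI of 7 genes after thinning to 1000 UMIs, in mature neutrophils and in B lineage cells of each library, with 95% exact intervals. Il1b reaches 10.0% to 42.3% of mature neutrophils and at most 0.276% of B lineage cells, and WT 1, with 30 cells, has the widest intervals.

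Whether the loss of TLR9 changed expression in mature neutrophils was tested on the members' UMIs summed per library, with edgeR's quasi-likelihood test on 5929 genes and Benjamini-Hochberg adjustment (two-sided, 2 libraries against 2). CPM in this comparison was scaled over the 4 sums of members alone. At an adjusted p under 0.05, 16 genes (0.27%) differed, of which 7 (0.118%) were higher and 9 (0.152%) lower in TLR9-/- members. The 4 sums correlated across genes with 0.839 to 0.840 between WT 1 and the others and 0.917 to 0.934 among the others, and genes are not independent replicates. Without WT 1, 6 genes were higher and 10 lower, of which 5 and 6 were among the 16, and without WT 2 2 were higher and 3 lower, of which 2 and 2 were. With the members of at least 1000 UMIs thinned to 1000, 0 genes were called, and 43 of 2274 had an unadjusted p under 0.05. Tlr9 itself had 2, 1, 1 and 1 UMIs in members of TLR9-/- 1, TLR9-/- 2, WT 1 and WT 2, too few to be tested, so that the disrupted gene gave no check of the labels in these cells.

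The gene lists are given by their counts and medians, and the genes that the rule used were left out. With 0.27% of all genes called, a count of 0 in a list of this length does not show that its genes were unchanged. Of 18 mature neutrophil genes tested, 0 passed and 0 had an unadjusted p under 0.05, beside 273 of 5929 genes (4.604%), and their median log2 fold change was 0.25 beside 0.03 over all genes. Il1b had 1082, 221, 161 and 577 CPM in TLR9-/- 1, TLR9-/- 2, WT 1 and WT 2, and the genotypes overlapped (log2 fold change 0.76, SE 0.65, adjusted p = 1.00). Without TLR9-/- 1 the value was −0.80. Slpi had 3691, 2899, 2097 and 3201 CPM (0.31, SE 0.42), Ifitm1 1887, 990, 686 and 1540 CPM (0.36, SE 0.47) and Cxcr2 526, 466, 161 and 574 CPM (0.37, SE 0.48). WT 1 was the lowest library for each of these genes. The value for Ifitm1 was −0.18 without TLR9-/- 1 and −0.10 without WT 1, and that for Cxcr2 was −0.21 without WT 1.

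For the other lists, the number with an unadjusted p under 0.05 is given where it was above 0. Of 14 secondary and tertiary granule genes 0 passed (1 unadjusted, median 0.17), of 20 NF-kB targets and inflammatory mediators 0 (median 0.57), of 13 early response genes 0 (median 0.52), of 18 pattern recognition and TLR signalling genes 0 (2 unadjusted, median 0.17), of 15 migration receptors 0 (median 0.08), of 7 NADPH oxidase genes 0 (median 0.22), of 14 granulocyte transcription factors 0 (1 unadjusted, median 0.29), of 11 survival genes 0 (1 unadjusted, median −0.10), of 8 heat shock genes 0 (median 0.31), of 18 cell cycle genes 0 (2 unadjusted, median −0.18), of 6 S100 genes 0 (median 0.33) and of 7 primary granule genes 0 (median 0.28). DESeq2 also called 0 genes of each of these lists. Fos had 1484, 234, 423 and 444 CPM, and the mean of the TLR9-/- libraries rested on TLR9-/- 1 (log2 fold change 0.98, SE 0.63, and −0.89 without it). Isg15, a ubiquitin-like protein induced by interferon, had 275, 144, 719 and 171 CPM (−1.02, SE 0.57), and its value turned to 0.29 without WT 1. Of 27 interferon-stimulated genes 1 passed, Oasl2 (4 unadjusted, of which 1 higher and 3 lower, median −0.02). Of 13 Fc and paired inhibitory receptors 1 passed, Cd300ld (1 unadjusted, median 0.16). Of the lists of other cells, 1 of 3 plasma cell genes passed, Jchain (2 unadjusted, higher, median 1.02). Of 8 erythroid, 8 B lineage, 6 monocyte, 5 macrophage and dendritic, 1 T and NK, and 2 basophil, eosinophil and platelet genes 0 passed by edgeR or DESeq2, with medians of −1.41, −0.99, 1.18, −0.21, 0.46 and −0.80. At an unadjusted p under 0.05, however, 5 of the 8 erythroid genes were lower in TLR9-/- members. Of the 8 B lineage genes 6 were lower and 1 higher, and of the 6 monocyte genes 4 were higher. Over all 5929 genes, 162 were lower and 111 higher at this limit. The genotypes did not overlap for 5 erythroid genes, all lower, for 5 lower and 1 higher B lineage genes, and for 3 higher monocyte genes. Over all 5929 genes this was so for 946 lower and 952 higher. The summed unscaled CPM of the erythroid, B lineage and monocyte lists overlapped between the genotypes, and Hbb-bs held most UMIs of the erythroid sum in TLR9-/- 1. Single genes of these lists thus differed at an unadjusted p, while the sums overlapped. A shift of other cells' RNA with the genotype was not shown after adjustment, nor was its absence.

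Among the lower genes, Gm34084, Oasl2, Trim12a and Cd300ld were spread over many members of the WT libraries. Gm34084 (chr13:44472426-44504548 of GRCm38, as for the genes below, a long intergenic noncoding RNA) had no UMI in either TLR9-/- library, 37 in WT 1 and 190 in WT 2, where 27 and 136 members carried it. This was 249 and 290 CPM in WT, at least 153-fold lower in TLR9-/- members with 3 UMIs taken as the limit over the group (adjusted p = 5.4e-05). With TLR9-/- 1 or TLR9-/- 2 left out, the limit was 86.5-fold or 66.4-fold. Oasl2 (chr5:114896936-114912234), a member of the oligoadenylate synthetase-like family induced by interferon, had 2, 2, 16 and 70 UMIs, or 2.81, 2.23, 108 and 107 CPM (2.52 ± 0.407 against 107 ± 0.495, SD, n = 2, log2 fold change −5.31, SE 0.52, adjusted p = 0.00033). It was carried by 15 members of WT 1 and 56 of WT 2. Cd300ld (chr11:114982274-114989922), an activating receptor of myeloid cells, had 11, 12, 14 and 151 UMIs, or 15.4, 13.4, 94.1 and 230 CPM (log2 fold change −3.60, SE 0.46, adjusted p = 0.0029), and without WT 2 it had −2.68 and was not called (adjusted p = 0.15). The WT libraries lay above the TLR9-/- libraries for each of these genes, which was the case for 946 of 5929 genes (16%) in this direction.

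Trim12a (chr7:104299894-104315466), of the tripartite motif family of antiviral factors, had 0, 1, 12 and 58 UMIs, or 0, 1.116, 80.7 and 88.5 CPM (log2 fold change −6.70, SE 0.69, adjusted p = 0.00046). Its neighbours Trim5 (chr7:104263386-104288094), with 0, 0, 3 and 15 UMIs, and Trim30d (chr7:104470014-104507849), with 0, 0, 6 and 25 UMIs, were also called, as was Gm16867 on chromosome 14, with 1, 0, 3 and 26 UMIs. Without WT 1, Trim5, Trim30d and Gm16867 were not called (adjusted p = 0.68, 0.11 and 0.10), nor was Trim5 without TLR9-/- 1 or TLR9-/- 2 (0.33 in each case). Trim5, Trim30d and Gm16867 were below the mean of 20 CPM required of named genes and were chosen after their values were seen. The 3 Trim genes are near copies of other members of the family, so that reads may be split between them. The remaining lower genes were the κ light chain genes Igkv1-135 and Igkv12-46, whose UMIs came from few cells. Igkv1-135 had 9 UMIs in 2 members of WT 1 and 47 in 3 members of WT 2, and of the Igkv12-46 UMIs 69.3% came from 1 cell. Igkv12-46 was not called without WT 2 (adjusted p = 0.087).

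Among the higher genes, BC018473 (chr11:116752167-116759373, annotated as antisense) had 125 UMIs in TLR9-/- 1, 471 in TLR9-/- 2 and 0 in each WT library, or 175 and 526 CPM, at least 98.3-fold higher (adjusted p = 0.0015). The strand setting of the counting is not given in the sources used here, so that its reads cannot be told apart from those of an overlapping gene. The cells with more than 5000 UMIs held 85.1% of its UMIs, and without them it was still called (adjusted p = 0.015) but the limit fell to 15.7-fold. Without WT 2, which held most of the WT UMIs, the limit was 16.7-fold, and without TLR9-/- 2 it was 47.5-fold. Gm35082 (chr7:100675088-100677760, a long intergenic noncoding RNA) had 41, 70, 0 and 0 UMIs in 39 and 63 TLR9-/- members, at least 18.3-fold higher (adjusted p = 0.0042), with 10.8% of its UMIs in the cells above 5000 UMIs, and without WT 2 it was not called (adjusted p = 0.17) and the limit was 3.10-fold. Gm6594, a processed pseudogene whose reads may stem from its parent gene, had 29, 88, 0 and 0 UMIs and was at least 19.3-fold higher (adjusted p = 0.015). The cells above 5000 UMIs held 64.1% of its UMIs, and without them it was not called (adjusted p = 0.22) and the limit was 7.42-fold. Nor was it called without WT 2 (adjusted p = 0.36), where the limit was 3.27-fold, and without TLR9-/- 2 the limit was 11.01-fold.

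The other 4 higher genes were expressed in plasma cells or lymphocytes. Jchain, which joins polymeric immunoglobulin, had 211, 345, 1 and 4 UMIs, and 1 cell of TLR9-/- 2 held 344 of them. Igha, the constant region of immunoglobulin A, had 2393 of its UMIs in 1 cell of TLR9-/- 2, and Igkv9-120 had 2410 in 1 cell of TLR9-/- 1. Ccl5, a chemokine of T and NK cells, had 125, 41, 1 and 1 UMIs, and the 41 came from 1 cell. The cells with more than 5000 UMIs held 96.6% of the UMIs of Jchain, 99.7% of Igha, 95.3% of Igkv9-120 and 65.5% of Ccl5. Ccl5 was not called without WT 1 (adjusted p = 0.13), without WT 2 (0.54) or with Camp and Ngp under 0.5% (0.14). Without WT 2, Igha and Igkv9-120 were not called either (adjusted p = 0.094 and 0.36), nor was Igkv9-120 without WT 1 (0.21). These 4 calls therefore rested on few cells and not on the members at large.

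**Figure D5:**
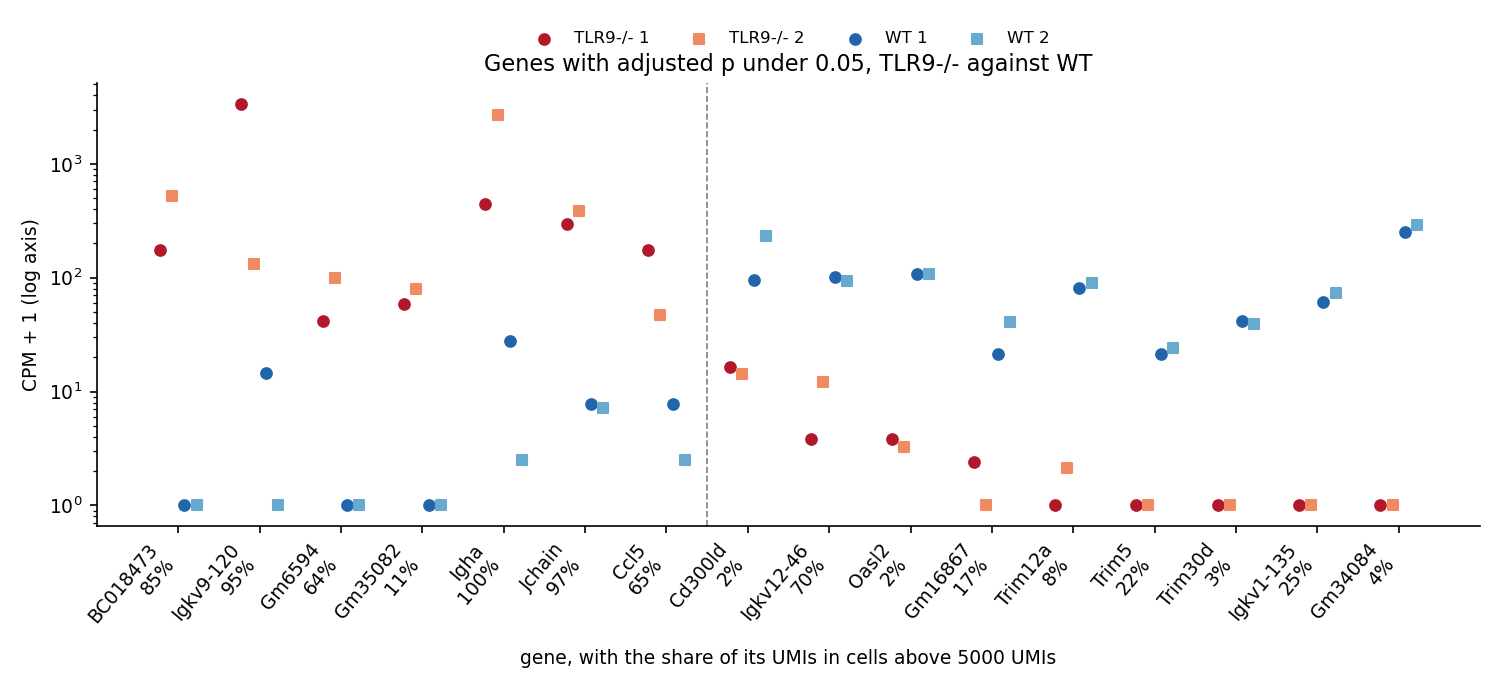
CPM + 1 (log axis) of the 16 genes called between TLR9-/- and WT mature neutrophils, with 1 point per library, and below each name the share of the gene's UMIs in cells above 5000 UMIs. Gm34084 is at 249 and 290 CPM in WT and at 0 in both TLR9-/- libraries, and Igha, Jchain and Igkv9-120 draw at least 95.3% of their UMIs from the large cells.

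Without the members above 5000 UMIs, 4234 genes were tested and 8 (0.189%) were called, 2 higher and 6 lower, all of which were among the 16. Oasl2 had a log2 fold change of −5.61 and Cd300ld of −3.53 (edgeR adjusted p = 0.0011 and 0.0024).

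The same genes were then read in intermediate neutrophils, in which 8952 genes were tested and 5 were higher and 5 lower in TLR9-/-. Gm34084 had 98.0 and 94.3 CPM in intermediate neutrophils of WT 1 and WT 2 and 0 in both TLR9-/- libraries, and Trim12a had 28.9 and 32.8 against 0 and 0.20 CPM, on the scale of the 8 sums of both stages. Both passed the test there (edgeR adjusted p = 5.5e-05 and 0.00031). Oasl2 had 12.6 and 8.01 CPM in WT and 1.34 and 1.23 in TLR9-/- intermediate neutrophils (log2 fold change −2.94, adjusted p = 0.096), and Cd300ld had 7.42 and 12.4 against 0.45 and 1.43 CPM (−3.24, adjusted p = 0.093). The difference of the genotype effect between the stages was tested as an interaction, which was passed by 1 of 7772 genes (0.0129%), Igkv1-135, and by 0 without WT 2 (459 of 8432 at an unadjusted p under 0.05). For Oasl2 the difference was −2.56 (SE 0.92, adjusted p = 1.00) and for Cd300ld −0.42 (SE 0.85, adjusted p = 1.00), so that no difference between the stages was shown for either gene.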

How the data were processed

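The authors deposited, per library, the UMI counts per gene of the cells called by Cell Ranger (version 3.0.1 per the file headers) against mm10, and these raw counts were used as deposited. The submitters' processing notes also name Seurat 2.3.4. Limits on cells were set as in the authors' methods, where the mitochondrial limit is printed as 0.10% and was read here as 10%. They leave 39167 cells, which is more than the study states. The members, gene lists and tests were chosen with earlier results of these data known.

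Counts of the members were summed per library, since cells of 1 mouse are not replicates, and TLR9-/- and WT sums were compared with edgeR 4.0.16 in R 4.3.3 (filterByExpr, TMM, quasi-likelihood test, two-sided, Benjamini-Hochberg adjustment over all genes tested). The labels do not say whether the 2 libraries of a genotype came from separate litters, and p-values measure the spread between these libraries. DESeq2 1.42.0, other scalings, no filter on low counts, a replicate block, other limits of the rule, thinning and leaving out each library were tried as alternatives. The scripts were tested on simulated data. Python 3.11.15, numpy 2.4.6, pandas 2.3.3 and scipy 1.17.1 were used for the cells and the permutation tests. Doublets were not called. Of 31053 genes, 30934 were matched by identifier to the GENCODE annotation for coordinates.

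The text names the genes of the rule and its markers, called genes with a mean of at least 20 CPM and libraries that do not overlap (up to 15 in each direction), the called genes and most abundant genes of each list, the 10 highest and 10 lowest genes between the stages among those with at least 50 CPM, Tlr9, and genes of the interaction. Further genes of the lists were chosen after their values were seen. Some genes counted in the lists are not reported here by name.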

Additional observations from a re-analysis of the deposited data

Results flagged for a closer look

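Igkv1-135, an immunoglobulin κ variable gene, was the gene whose difference between TLR9-/- and WT differed between mature and intermediate neutrophils by the test of that difference itself. The genotype effect was lower in mature than in intermediate neutrophils by a log2 difference of −9.58 (edgeR adjusted p = 0.016, 1 of 7772 genes, 0.0129%). The call was lost without WT 2 (−9.31, adjusted p = 0.39) and without TLR9-/- 1 (−1.93, adjusted p = 1.00). On the scale of the 8 sums of both stages it had 0, 0, 50.9 and 62.2 CPM in mature and 29.5, 0, 14.1 and 15.5 CPM in intermediate neutrophils of TLR9-/- 1, TLR9-/- 2, WT 1 and WT 2. Its UMIs in mature neutrophils came from 2 cells of WT 1 and 3 cells of WT 2.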

How the results depend on the processing

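The counts of 7 higher and 9 lower genes in TLR9-/- mature neutrophils were 16 and 24 with no filter on low counts (13325 genes tested) and 2 and 4 without cells with at least 2 UMIs of other lineages (2576 genes). With Camp and Ngp under 0.5% there were 4 higher genes, and without the members above 5000 UMIs, an alternative chosen after seeing the data, 2. With the 777 members of at least 1000 UMIs thinned to 1000, which changes both the cells and the depth, both counts were 0 by edgeR over 2274 genes, of which 43 had an unadjusted p under 0.05. There Oasl2 had a log2 fold change of −4.14 and Cd300ld of −3.01. DESeq2 gave 5 and 8. With 1 library left out, which leaves a lone library assumed to vary like the other genotype, the counts ranged from 2 to 18 higher and from 3 to 21 lower. The lowest counts were without WT 2, 18 higher was without TLR9-/- 2, and 21 lower was without TLR9-/- 1. The library numbers are not stated to mark a shared experiment, and same-numbered libraries deviated from their group means with a correlation of 0.00936 over 5929 genes. A replicate block gave 12 and 23 genes, which included the 7 and the 9.

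Between the stages, the 94 higher and 96 lower genes became 242 and 265 without the members above 5000 UMIs, also chosen after seeing the data.

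The share difference ranged from −0.277 to 3.78 percentage points of all cells, and from −0.389 to 15.9 of the S100a8/S100a9-high cells, the lowest without WT 1 and the highest without WT 2. The 1 gene with a genotype by stage difference became 15 with no filter on low counts, and 0 (without WT 2) to 8 (without TLR9-/- 1) with 1 library left out.

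For 5 of 7 genes with no call, the sign of the log2 fold change depended on the library left out. The values ranged from −0.21 (without WT 1) to 1.64 for Cxcr2, from −0.89 (without TLR9-/- 1) to 1.78 for Fos, from −0.18 (without TLR9-/- 1) to 1.09 for Ifitm1, from −0.80 (without TLR9-/- 1) to 2.04 for Il1b, and from −1.76 to 0.29 (without WT 1) for Isg15. Ifitm1 also had −0.10 without WT 1. Slpi stayed between 0.042 and 0.67 over its 13 alternatives, and Cxcr4 had 0.35 without cells with UMIs of other lineages. The cause was not tested. Igkv9-120 lost its call in 6 alternatives, with log2 fold changes from 4.84 to 13.4, Trim5 in 6, with −7.12 to −6.49, and Gm16867 in 4, with −7.27 to −4.36 over all alternatives. Ccl5, with 4.01 to 6.01, Gm6594, with 6.87 to 8.80, and Igha, with 5.85 to 9.85, lost theirs in 3 alternatives each, Cd300ld in 2, and BC018473, Gm34084, Gm35082, Igkv12-46, Jchain, Oasl2, Trim12a and Trim30d in 1 each. Igkv1-135 kept its call in its 10 alternatives. The number of alternatives differed between genes, so these counts are not directly comparable. It was 13 for BC018473, Cd300ld, Gm34084 and Oasl2, and 12 for Gm35082 and Igkv9-120. It was 11 for Gm6594, Igha, Jchain and Trim12a, 10 for Ccl5, Gm16867, Igkv12-46 and Trim30d, and 9 for Trim5. Without the members above 5000 UMIs, 0 plasma cell genes were called, so that Jchain had no call there.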
